A study of Homo sapiens with 9 samples.

Results

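RSGL, a compound known here only by its code name, was compared with its solvent in lung cancer cells by RNA sequencing. The comparison takes 6 of the 9 libraries of the study. Of these, 3 are from cells held for 24 h in 10 µM RSGL and 3 from cells held for 24 h in 0.1% DMSO, the control. The other 3 libraries, from cells given a second compound called BSGL, enter no test unless that is stated. All cells were grown in RPMI 1640 medium with 10% fetal bovine serum, and H441, a line from a lung adenocarcinoma, is the label of every library. The genes were chosen by level and place alone, as those with at least 1 FPKM (fragments divided by gene length and by library size) in at least 3 of the 6 libraries and on a chromosome or the mitochondrial genome. This left 12244 of the 45754 genes in the table. Another 226 genes reached that level but are placed on other scaffolds, and they were not tested.

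The labels limit what the groups can stand for. The cell line field says H441 for both groups, but a tag for the genotype reads H460 on the control libraries and A549 on the RSGL libraries, which are 2 other lung cancer lines. The treatment note speaks of a single replicate of the cells, and no label says that the libraries came from separate cultures, so p-values measure the spread between these libraries, which may be technical. No label names a batch. Of 9 lung lineage genes for which H441 is known, among them NKX2-1 and the surfactant genes, 0 passed the filter. Their summed level was 1.52 to 2.38 FPKM in control and 1.14 to 1.28 FPKM under RSGL. Lines that lack working KEAP1, A549 and H460 among them, are known for high levels of 13 other genes, and 12 of these passed, with sums of 4321 to 4432 FPKM and 2378 to 2456 FPKM. Of the 6 epithelial markers, the keratins KRT7, KRT8 and KRT18 were each above 300 FPKM in every library, while KRT19 (1.82 to 4.69 FPKM), CDH1 (5.03 to 8.37 FPKM) and EPCAM (0.267 to 0.617 FPKM) were low. The groups were also searched for genes present in only 1 of them. With at least 5 FPKM in all 3 libraries of a group and under 0.1 FPKM in all 3 of the other, 0 genes were found in RSGL alone and 0 in control alone. The median log2 difference of each autosome and of X lay between -0.040 and 0.033.

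The libraries held 16720414 to 18513691 fragments in genes, and 12213 to 12338 genes reached 1 FPKM in each. The first principal component carried 74.9% of the variance, with the control libraries at -23.7 to -22.6 and the RSGL libraries at 23 to 23.4. The second carried 8.75%. On it replicates 1 to 3 lay at 3.49, 5.83 and -9.59 in control and at 11.3, -0.434 and -10.6 under RSGL. Replicate 3 was thus lowest in each group, while the RSGL libraries were spread along the whole range. The share of fragments from the mitochondrial genome was 5.45 to 6.17%. The 10 most abundant genes took 6.75 to 6.96% of fragments in control and 7.85 to 8.0% under RSGL. Of the markers of other cell types, all 7 endothelial markers were under 0.1 FPKM in every library, and CD3D, CD3E and CD2, which define T cells, were at 0. The 9 fibroblast markers summed to 9.95 to 11.4 FPKM in control and 7.93 to 8.21 FPKM under RSGL, led by LUM. The 8 neuroendocrine markers, led by CHGB, summed to 8.93 to 9.58 FPKM and 10.3 to 11.1 FPKM, and the 7 basal markers, led by SOX2, to 8.34 to 9.68 FPKM and 2.44 to 2.59 FPKM. The 8 macrophage markers summed to 42.6 to 43.0 FPKM in control and 117 to 122 FPKM under RSGL, nearly all of it CD68, a lysosomal protein. Only 2 of the 8 were tested, and CD68 was called higher and CD14 lower (2.11 FPKM in control and 0.346 FPKM under RSGL). AIF1 was at 0, but it is placed on another scaffold.

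Several programmes of a stressed or growing cell are well known and help in reading the genes below. ATF4 is a transcription factor that is translated when amino acids run short or proteins misfold, and it switches on amino acid synthesis, transport and the factor CHOP. Cells that stop dividing silence the genes of DNA replication and mitosis together, through E2F sites and an element called the cell cycle genes homology region. ERK kinase signalling raises its own brakes, the DUSP phosphatases and Sprouty proteins, along with AP-1 factors and EGF receptor ligands. NRF2 drives antioxidant enzymes and is held down by KEAP1.

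A large share of the genes tested differed between RSGL and control. At an adjusted p under 0.05, limma called 6639 of 12244 genes (54.2%), 3336 higher (27.2%) and 3303 lower (27.0%). Most of the differences were small. The median absolute difference among called genes was 0.34 on the log2(FPKM + 1) scale, and 4761 of the calls were under 0.5. A difference of at least 1 on that scale, called large here, was seen in 224 genes that rose (1.83%) and 176 that fell (1.44%). All differences below are RSGL minus control on this scale, which understates changes of genes at low FPKM. Of the calls 50.2% were higher, and 43.9% when the FPKM of every library were brought to a common sum, as TPM are, which shifted the median of all genes by -0.038. In 7667 genes (62.6%) the libraries of the groups did not overlap. Without adjustment, 7309 genes had a p under 0.05. The share called was 42.2% of genes with a mean under 2 FPKM, 65.9% of those between 30 and 100 FPKM and 62.0% of those above. Counts of list members below are to be read against the 27.2%, 27.0% and 54.2% of all genes. In such bulk RNA, fewer cells of a type and less RNA per cell cannot be told apart.

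**Figure D1:**
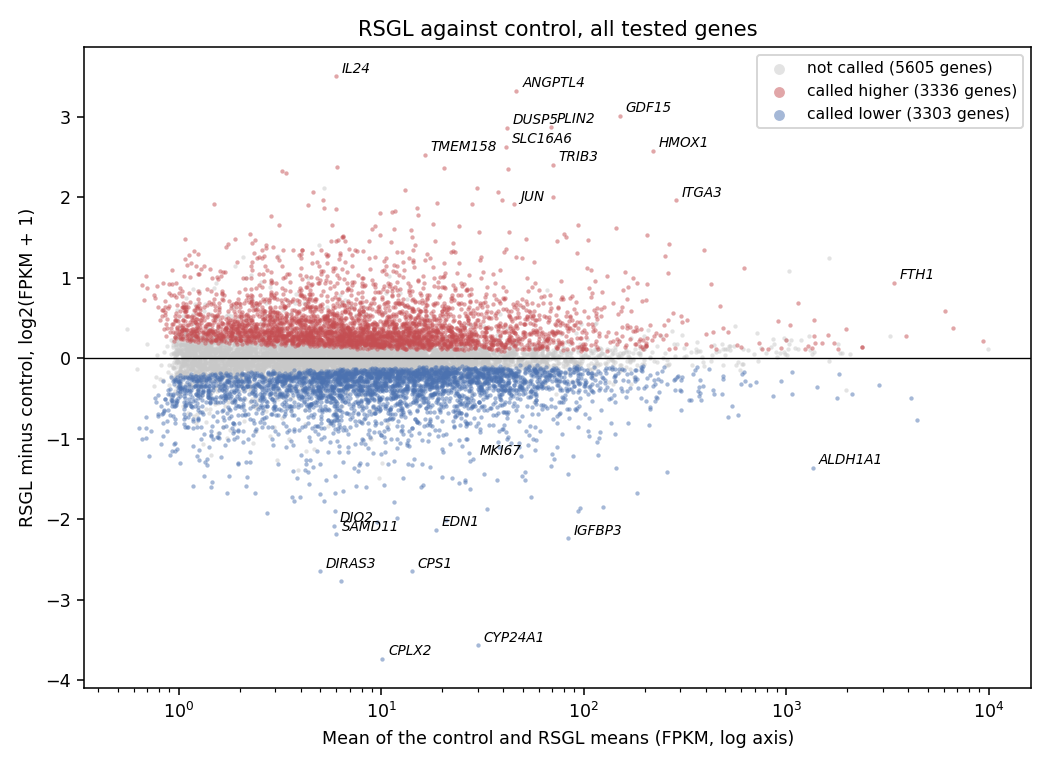
Difference between RSGL and control for the 12244 tested genes, against the mean of the group means in FPKM on a log axis. Each point is a gene, coloured by the limma call, with 3336 red points called higher and 3303 blue points called lower. The median over all tested genes is 0.002, and most differences are under 0.5 in size.

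The 12 largest rises are given by library, in the order of replicates 1 to 3. IL24, a secreted cytokine, rose most. It stood at 0.129, 0.101 and 0.156 FPKM in control and 11.1, 12.1 and 12.1 FPKM under RSGL, and the control values rest on 5, 4 and 6 fragments. ANGPTL4, an inhibitor of lipoprotein lipase, was at 7.96, 7.80 and 7.17 FPKM in control and 85.5, 83.5 and 87.2 FPKM under RSGL. GDF15, a hormone of cell stress, was at 31.6, 33.5 and 32.2 FPKM in control and 266, 271 and 269.7 FPKM under RSGL. The control level of IL24 was thus near 0, while ANGPTL4 and GDF15 were well expressed in both groups. PLIN2 coats lipid droplets and was at 15.8, 15 and 16.5 FPKM in control and 125, 116 and 125 FPKM under RSGL. DUSP5, a nuclear phosphatase of ERK, was at 9.93, 9.23 and 8.92 FPKM in control and 71.5, 76.3 and 75.5 FPKM under RSGL. SLC16A6, of the monocarboxylate transporter family, was at 10.6, 10.7 and 11.1 FPKM in control and 73.6, 71.2 and 71.7 FPKM under RSGL. HMOX1, which breaks down heme, stood at 61.1, 61.9 and 64.3 FPKM in control and 375, 372 and 386 FPKM under RSGL. TMEM158, a gene known to be induced by RAS signalling, was at 3.44, 4.96 and 4.07 FPKM in control and 22.5, 30.6 and 32.9 FPKM under RSGL, with the widest spread of the 12 leading rises (log2 difference 2.52, SE 0.178). TRIB3, a pseudokinase induced by ATF4, stood at 22.1, 23.2 and 20.2 FPKM in control and 125, 118 and 115 FPKM under RSGL. SPOCD1 was at 1.16, 1.46 and 1.18 FPKM in control and 11.2, 11.2 and 9.97 FPKM under RSGL. The list closed with the stanniocalcins, secreted glycoproteins. STC1 was at 6.38, 5.73 and 5.79 FPKM in control and 34.7, 34.8 and 34.5 FPKM under RSGL, and STC2 at 13.5, 13.0 and 13.4 FPKM in control and 69.4, 73.2 and 72.2 FPKM under RSGL. The log2 differences of these 12 genes ran from 2.35 for STC2 to 3.50 for IL24.

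The 12 largest falls are given in the same way. CPLX2, a complexin that clamps vesicle fusion, stood at 19.6, 20.1 and 19.3 FPKM in control and 0.505, 0.673 and 0.464 FPKM under RSGL. CYP24A1, which inactivates vitamin D, was at 55.9, 59.4 and 53.5 FPKM in control and 3.48, 3.85 and 4.12 FPKM under RSGL. DIRAS3, a RAS-like protein that restrains growth, was at 9.20, 9.06 and 9.61 FPKM in control and 0.424, 0.705 and 0.796 FPKM under RSGL. Of these 3, CYP24A1 kept the highest level under RSGL. CPS1, the carbamoyl phosphate synthetase of the urea cycle, was at 26.0, 25.1 and 24.6 FPKM in control and 3.60, 2.96 and 3.03 FPKM under RSGL. IGFBP3, which binds insulin-like growth factors, was at 133, 146 and 138 FPKM in control and 29.4, 27.0 and 29.7 FPKM under RSGL. SAMD11 was at 10.8, 10.2 and 10.3 FPKM in control and 1.23, 1.73 and 1.57 FPKM under RSGL. EDN1 encodes the vasoconstrictor endothelin and was at 31.6, 30.2 and 31.0 FPKM in control and 6.77, 6.22 and 5.69 FPKM under RSGL. DIO2, the deiodinase that activates thyroid hormone, was at 10.1, 10.3 and 10.00 FPKM in control and 1.55, 1.72 and 1.55 FPKM under RSGL. CDKN2C, the CDK4 and CDK6 inhibitor p18, was at 20.3, 18.9 and 19.9 FPKM in control and 4.46, 3.88 and 4.38 FPKM under RSGL. NNMT, which methylates nicotinamide, was at 147, 150.3 and 157 FPKM in control and 44.2, 38.3 and 40.9 FPKM under RSGL. ID1, an inhibitor of basic helix-loop-helix factors, was at 198, 207 and 183 FPKM in control and 54.4, 51.9 and 54.3 FPKM under RSGL. INSL4, an insulin-like peptide, was at 18.2, 17.1 and 19.8 FPKM in control and 3.86, 4.91 and 5.17 FPKM under RSGL. Differences ran from -3.74 for CPLX2 to -1.79 for INSL4. The 24 leading genes were chosen among called genes with no overlap and a higher group mean of 5 FPKM or more, so their separation is part of the choice.

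**Figure D2:**
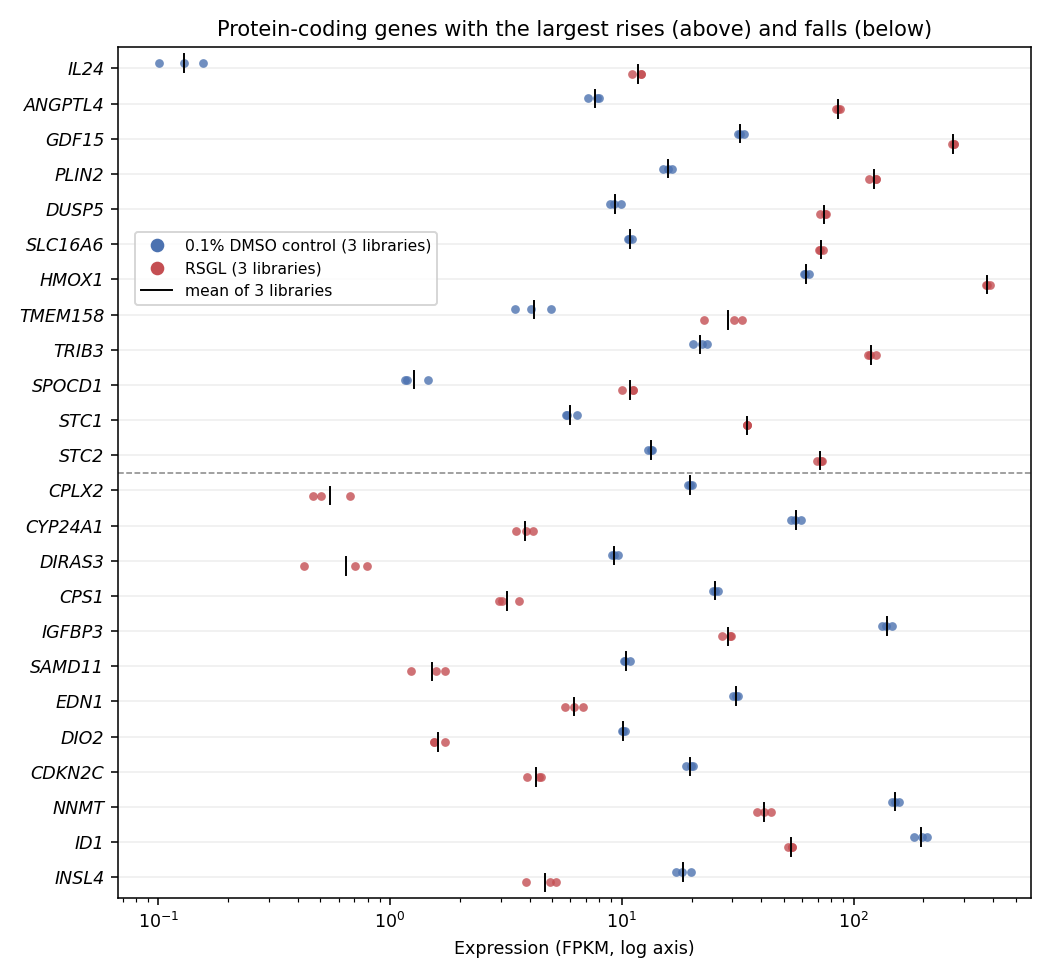
Expression in FPKM (log axis) of the 12 protein-coding genes with the largest rises and the 12 with the largest falls, chosen by the size of their difference among called genes with no overlap and a higher group mean of 5 FPKM or more. Each point is a library and each bar the mean of 3, and the choice made the blue control points and red RSGL points lie apart in each gene.

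On GRCh38, TMEM158 (gene ID 25907) lies on chromosome 3 at 45224464 to 45226322, TRIB3 (gene ID 57761) lies on chromosome 20 at 380629 to 397559 and SPOCD1 (gene ID 90853) lies on chromosome 1 at 31790422 to 31816051. STC1 (gene ID 6781) lies on chromosome 8 at 23841921 to 23854807 and STC2 (gene ID 8614) lies on chromosome 5 at 173314723 to 173329503. EDN1 (gene ID 1906) lies on chromosome 6 at 12256464 to 12297194, DIO2 (gene ID 1734) lies on chromosome 14 at 80197525 to 80231054 and CDKN2C (gene ID 1031) lies on chromosome 1 at 50968695 to 50974637. NNMT (gene ID 4837) lies on chromosome 11 at 114295813 to 114312516, ID1 (gene ID 3397) lies on chromosome 20 at 31605283 to 31606515 and INSL4 (gene ID 3641) lies on chromosome 9 at 5231419 to 5233967. The table gives a single value per gene, for the gene as a whole.

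Genes of the ATF4 amino acid response rose almost as a whole. Of 26 tested members 23 rose and 2 fell, with a median difference of 0.97, where 27.2% of all genes rose and the median of all genes was 0.002. Of the transcription factors, DDIT3, which encodes CHOP, was at 12.1, 14.3 and 15.7 FPKM in control and 62.4, 60.5 and 61.5 FPKM under RSGL and rose by 2.06 (SE 0.0805). CEBPB, a partner of ATF4 and CHOP, rose from 39.1 ± 2.96 to 109 ± 2.43 FPKM (SD, n = 3), and CEBPG, another dimer partner, from 20.2 to 43.5 FPKM. ATF5, a close relative of ATF4, went the other way, from 17.4 ± 0.628 to 11.9 ± 0.129 FPKM (difference -0.52, SE 0.0421). Feedback and signalling genes showed the largest differences, with 8 of 8 higher and a median of 1.73. PPP1R15A, which restores translation by recruiting a phosphatase to eIF2 alpha, was at 26.5, 26.8 and 29.4 FPKM in control and 107, 114 and 117 FPKM under RSGL. VLDLR, a lipoprotein receptor, rose from 3.74 to 11.1 FPKM, and CHAC1, which degrades glutathione, from 0.786 to 3.95 FPKM. EIF4EBP1, a repressor of cap-dependent translation, rose from 126 to 241 FPKM. Of 10 enzymes of amino acid synthesis 9 rose. Asparagine synthetase, ASNS, was at 43.8, 45.4 and 44.4 FPKM in control and 147, 141 and 141 FPKM under RSGL. Serine synthesis rose at PHGDH, from 22.8 ± 0.346 to 58.4 ± 1.09 FPKM, and at PSAT1, from 117 ± 6.32 to 235 ± 4.96 FPKM, while PSPH, the last step, rose less, from 12.3 ± 0.674 to 14.9 ± 1.21 FPKM. The mitochondrial folate enzymes MTHFD2 and ALDH1L2 rose from 89.0 to 158 FPKM and from 3.33 to 8.20 FPKM. ALDH18A1, of proline synthesis, fell slightly (-0.12, SE 0.0381), and NUPR1, a stress cofactor at 4.94 and 4.30 FPKM, did not pass (adjusted p = 0.103, limma), though it did without control replicate 1 (-0.23). The call of ALDH18A1 was lost when any library but RSGL replicate 2 was left out (-0.12 to -0.10).

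Enzymes that charge tRNAs are given by compartment, and the difference between compartments was not tested. Of 18 tested cytosolic aminoacyl-tRNA synthetases 10 rose and 4 fell (median 0.37, 77.8% called). Of 15 mitochondrial ones 1 rose and 5 fell (median -0.07, 40.0% called, against 54.2% of all genes). SARS, the seryl enzyme, was at 24.2, 24.5 and 25.7 FPKM in control and 49.5, 47.3 and 47.6 FPKM under RSGL. GARS (glycyl) rose from 74.5 ± 0.453 to 137 ± 4.57 FPKM, AARS (alanyl) from 79.5 ± 1.64 to 139.9 ± 4.39 FPKM and MARS (methionyl) from 80.1 ± 1.69 to 136 ± 2.27 FPKM. The glutaminyl enzyme QARS fell from 50.5 ± 0.532 to 39.9 ± 0.881 FPKM. Amino acid carriers followed in part, with 11 of 17 higher and 3 lower. SLC43A1, a carrier of large neutral amino acids, rose from 1.84 to 4.71 FPKM, SLC6A9, of glycine, from 1.89 to 3.72 FPKM, and SLC38A2, a sodium-coupled carrier of small neutral amino acids, from 46.1 to 73.4 FPKM. SLC7A5 and SLC3A2, which form the leucine exchanger, rose by 0.13 and 0.29, but the call of SLC7A5 was lost when any library but RSGL replicate 3 was left out (0.09 to 0.13). In the other direction, the glutamate carrier SLC1A3 was at 12.7, 13.0 and 11.9 FPKM in control and 4.61, 4.31 and 4.36 FPKM under RSGL, a fall of 1.32 on the log2 scale. SLC7A11, the cystine exchanger and a common target of ATF4 and NRF2, fell from 44.2 ± 1.59 to 34.6 ± 1.15 FPKM.

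Genes of the unfolded protein response of the endoplasmic reticulum are given by role. All 4 sensors and transducers rose, among them ERN1, which splices XBP1, from 2.63 ± 0.153 to 5.27 ± 0.282 FPKM, and EIF2AK3, the kinase PERK, from 2.89 ± 0.186 to 4.39 ± 0.236 FPKM. Of 7 degradation genes 4 rose and 0 fell, with EDEM1, which hands misfolded glycoproteins to disposal, from 10.9 to 18.4 FPKM. Of 15 chaperones and folding enzymes 5 rose and 7 fell. DNAJB9 rose from 5.24 ± 0.162 to 10.9 ± 0.585 FPKM and HSPA5, the main lumenal chaperone, from 225 ± 1.11 to 266 ± 2.99 FPKM. CALR, calreticulin, fell from 429 ± 18.4 to 318 ± 3.80 FPKM, SDF2L1 from 54.1 ± 3.14 to 40.7 ± 3.06 FPKM and CRELD2 from 13.3 ± 0.556 to 9.88 ± 0.316 FPKM. Heat shock genes showed no shared rise. Of 12 cytosolic ones 1 rose, HSP90AA1 (0.12), whose call was lost without replicate 1 or 2 of either group (0.09 to 0.12). Lower were 6, among them DNAJA1, a partner of HSP70, from 157 ± 5.15 to 109.7 ± 0.899 FPKM. Of 6 mitochondrial ones LONP1, a matrix protease, rose from 40.8 ± 0.397 to 62.5 ± 3.89 FPKM and HSPA9 from 213 ± 2.77 to 283 ± 4.76 FPKM, while HSPD1 and HSPE1, which form the folding chamber, fell by 0.24 and 0.36.

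Genes of cell division fell without exception among those tested. All 35 tested genes of G2/M and mitosis (median -0.83) and all 37 of DNA replication (median -0.65) were called lower, where 27.0% of all genes were. KIF20A, a kinesin of the cleavage furrow, was at 33.4, 32.2 and 35.2 FPKM in control and 12.1, 11.1 and 10.7 FPKM under RSGL. PLK1, a mitotic kinase, was at 59.9, 62.7 and 56.6 FPKM in control and 30.3, 27.5 and 26.7 FPKM under RSGL. MKI67, the Ki-67 antigen, was at 39.0, 40.7 and 41.7 FPKM in control and 18.2, 17.9 and 13.6 FPKM under RSGL. In each of these the groups did not overlap. AURKA, which builds the spindle poles, fell from 72.5 ± 2.33 to 33.8 ± 1.67 FPKM, and TOP2A, which untangles sister chromatids, from 156 ± 2.36 to 75.5 ± 0.481 FPKM. The smallest difference in the mitotic list was that of CENPA, the centromeric histone, from 26.7 ± 0.979 to 19.9 ± 0.493 FPKM (-0.41, SE 0.0419). Among replication genes RRM2, a subunit of the reductase that makes deoxynucleotides, was at 78.2, 80.2 and 79.9 FPKM in control and 35.9, 35.9 and 34.8 FPKM under RSGL. ORC1, of the origin recognition complex, fell from 8.78 ± 0.0729 to 3.61 ± 0.0335 FPKM, TK1, thymidine kinase, from 101 ± 5.81 to 46.4 ± 2.52 FPKM, and PCNA, the polymerase clamp, from 188 ± 7.28 to 97.9 ± 1.98 FPKM. The 6 subunits MCM2 to MCM7 of the replicative helicase fell by 0.60 (MCM2) to 1.11 (MCM4) on the log2 scale. RFC2, a clamp loader subunit, showed a difference of -0.25. Of 24 repair genes 22 fell and 0 rose. TOPBP1 and CLSPN, which pass on the ATR signal, fell from 16.5 to 9.60 FPKM and from 5.96 to 3.2 FPKM, while PALB2 (3.77 and 3.56 FPKM) and ATM (3.56 and 3.21 FPKM) did not pass (adjusted p = 0.403 and 0.122, limma).

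Promoters of these genes were searched for known elements. Windows of 250 bases before to 50 after the annotated start were available from RefSeq (GRCh38.p14) for 31 of the 35 mitotic genes. The cell cycle genes homology region, searched as TTTGAA on both strands, was found in 22 of the 31 windows (71.0%), against 9.32% of 9255 windows of tested genes and 15.4% of all 27305 windows. Its other form, TTTAAA, was in 12 of 31 (38.7%), against 7.22% of tested genes. For replication genes the E2F element TTTGGCGC was in 6 of 33 windows (18.2%), against 1.09%. The following stretches, 5′ to 3′ on the gene's strand and ending at or before the base ahead of the start, carry TTTGAA or its reverse complement in capitals, for the 5 mitotic genes with the largest falls that hold it upstream. A match in a window is a description and no evidence of binding. The shares of windows given for lists, here and below, follow from which genes are listed and not from how they moved under RSGL.
MKI67, chr10:128126424-128126500, - strand: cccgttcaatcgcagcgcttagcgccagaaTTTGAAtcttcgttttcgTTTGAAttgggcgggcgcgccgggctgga
KIF11, chr10:92593072-92593129, + strand: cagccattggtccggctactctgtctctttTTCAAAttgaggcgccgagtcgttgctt
PLK1, chr16:23678830-23678888, + strand: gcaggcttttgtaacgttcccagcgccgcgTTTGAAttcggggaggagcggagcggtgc
TOP2A, chr17:40418012-40418120, - strand: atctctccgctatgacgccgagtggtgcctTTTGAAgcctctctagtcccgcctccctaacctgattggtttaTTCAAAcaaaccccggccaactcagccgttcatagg
KIF18A, chr11:28108157-28108196, - strand: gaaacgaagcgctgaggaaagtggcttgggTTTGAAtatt
In MKI67 and TOP2A the letters occur more than once within the stretch. For replication genes the capitals mark TTTGGCGC or its reverse complement in the 3 members with the largest falls that hold it upstream.
MCM6, chr2:135876496-135876625, - strand: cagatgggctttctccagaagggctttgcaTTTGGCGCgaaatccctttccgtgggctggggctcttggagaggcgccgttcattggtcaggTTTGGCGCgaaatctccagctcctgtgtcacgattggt
POLA1, chrX:24693751-24693818, + strand: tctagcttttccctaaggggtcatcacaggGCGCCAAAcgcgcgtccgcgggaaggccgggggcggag
POLE, chr12:132687343-132687390, - strand: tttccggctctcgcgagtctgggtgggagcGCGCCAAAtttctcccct

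Regulators of the cycle moved with less uniformity. Of 13 drivers 8 fell and 2 rose. CCND3, cyclin D3, was at 59.0, 52.8 and 54.8 FPKM in control and 18.5, 19.7 and 18 FPKM under RSGL, while CCND1, cyclin D1, rose from 138 ± 1.21 to 159.9 ± 5.34 FPKM and MYC from 36.1 ± 0.809 to 45.3 ± 1.71 FPKM. E2F8, an atypical E2F repressor, fell from 6.49 ± 0.196 to 1.88 ± 0.444 FPKM and CDK6 from 8.68 ± 0.186 to 4.35 ± 0.0861 FPKM. Of 10 inhibitors and RB family members CDKN1A, the inhibitor p21, rose, from 87.0 ± 5.5 to 124 ± 2.80 FPKM, and 4 fell. CDKN1B, the inhibitor p27, (7.70 and 8.23 FPKM) did not pass (adjusted p = 0.295, limma). Targets of p53 pointed both ways, 8 higher and 8 lower of 29, a share called (55.2%) near the 54.2% of all genes. Without control replicate 1, 5 were lower. GADD45A, which binds PCNA, rose from 29.0 ± 2.44 to 70.2 ± 5.54 FPKM, and TNFRSF10B, a death receptor, from 49.7 ± 0.915 to 86.6 ± 1.81 FPKM. TP53I3 fell from 34.0 ± 0.983 to 19.1 ± 0.563 FPKM and PLK2 from 61.6 ± 0.760 to 37.0 ± 0.754 FPKM, while MDM2 (14.4 and 13.3 FPKM) and BBC3 (5.55 and 5.11 FPKM) did not pass. MDM2 was called lower without control replicate 3 (-0.14). In the BCL2 family 4 of 4 survival members rose, MCL1 from 58.1 ± 1.47 to 96.7 ± 1.61 FPKM and BCL2L1 from 49.5 ± 0.938 to 62.5 ± 1.93 FPKM. Of 9 death effectors and sensors BMF rose from 1.07 ± 0.110 to 3.93 ± 0.167 FPKM, with PMAIP1 and BAK1, and BCL2L11, the sensor BIM, fell from 2.26 ± 0.0904 to 1.32 ± 0.153 FPKM.

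The ERK output genes rose, 15 of 17 with 0 lower (median 0.66). Beside DUSP5, DUSP1 was at 68.3, 71.7 and 71.7 FPKM in control and 218, 222 and 219 FPKM under RSGL, and DUSP6, a cytosolic ERK phosphatase, at 2.74, 2.84 and 3.07 FPKM in control and 10.0, 9.17 and 10.8 FPKM under RSGL. SPRY2, a Sprouty inhibitor of receptor signalling, was at 3.91, 3.98 and 3.79 FPKM in control and 10.9, 11.1 and 11.9 FPKM under RSGL. The ETS factors ETV4 and ETV5, read as direct output of ERK, rose from 14.1 to 24.5 FPKM and from 8.68 to 12.5 FPKM. Differences ranged from 0.07 for SPRY1, which did not pass, to 2.86 for DUSP5. Of 22 AP-1 and early growth factors 16 rose and 2 fell. JUN was at 18.9, 18.4 and 18.1 FPKM in control and 70.2, 71.6 and 75 FPKM under RSGL. FOSL1, its partner FRA-1, was at 42.8, 43.1 and 40.6 FPKM in control and 119, 129.6 and 115 FPKM under RSGL, whereas the related FOSL2 (72.6 and 68.5 FPKM) did not pass (adjusted p = 0.106, limma). MAFF, a small MAF protein, rose from 2.54 ± 0.225 to 8.75 ± 0.730 FPKM. JUNB fell from 22.3 ± 0.864 to 17.4 ± 0.561 FPKM and KLF10 from 26.9 ± 1.49 to 22.6 ± 0.477 FPKM, against the rest of the list. The element TGANTCA bound by AP-1 was in 1 of 18 windows of this list (5.56%), near the 4.57% of tested genes. Of 7 EGF receptor ligands and shedding genes 5 rose and 1 fell. EREG was at 53.6, 57.4 and 54.8 FPKM in control and 160.2, 151 and 153 FPKM under RSGL, TGFA at 2.32, 2.93 and 2.78 FPKM in control and 8.36, 8.32 and 7.43 FPKM under RSGL and HBEGF at 3.61, 3.18 and 4.06 FPKM in control and 8.82, 10.4 and 9.62 FPKM under RSGL. AREG rose from 39.4 ± 0.936 to 75.8 ± 1.65 FPKM, the receptor EGFR from 17.1 ± 0.244 to 33.1 ± 4.85 FPKM and its inhibitor ERRFI1 from 24.5 ± 0.860 to 40.6 ± 0.242 FPKM. NRG1, a ligand of ERBB3 and ERBB4, fell from 11.6 ± 0.318 to 5.82 ± 0.115 FPKM.

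Among other growth factors and receptors 7 of 14 rose and 4 fell. VEGFA, which drives vessel growth, was at 16.4, 15.4 and 14.9 FPKM in control and 63.1, 64.1 and 62.9 FPKM under RSGL. FGFR1 rose from 13.0 ± 0.311 to 27.2 ± 1.12 FPKM, while FGFR4 fell from 10.4 ± 0.886 to 4.45 ± 0.299 FPKM and FGFR3 from 2.65 ± 0.243 to 0.723 ± 0.127 FPKM. MET (38.5 and 38.0 FPKM) did not pass (adjusted p = 0.715, limma). IGFBP1 rose from 22.9 ± 2.20 to 60.2 ± 0.237 FPKM, in contrast to IGFBP3. RND3, a GTPase that loosens stress fibres, was at 11.5, 11.6 and 10.5 FPKM in control and 44.9, 44.2 and 45.7 FPKM under RSGL.

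TGF-beta signalling genes mostly fell. Of 11 ligands, receptors and SMADs 8 fell and 0 rose. TGFB2 fell from 18.6 ± 0.628 to 8.31 ± 0.343 FPKM, its receptor TGFBR2 from 40.0 ± 0.657 to 21.3 ± 0.925 FPKM, and the feedback genes SMAD6 and SMAD7 from 11.1 to 4.83 FPKM and from 8.12 to 4.56 FPKM. TGFBI, a matrix protein induced by TGF-beta, was at 283, 279 and 272 FPKM in control and 90.2, 85.4 and 85.0 FPKM under RSGL, and THBS1, thrombospondin, fell from 14.2 ± 0.450 to 5.69 ± 0.249 FPKM. The YAP targets CYR61 (CCN1) and CTGF (CCN2) diverged, with CYR61 at 46.7 and 80.4 FPKM, a rise, and CTGF at 8.71 and 7.23 FPKM, a fall that was not called without control replicate 2 (-0.20). ID2 fell like ID1, from 99.6 ± 2.24 to 38.9 ± 1.67 FPKM. In the WNT and Notch list 7 of 21 rose and 10 fell. AXIN2, a standard target of WNT signalling, fell from 3.60 ± 0.0698 to 0.879 ± 0.112 FPKM and LGR4, a receptor that enhances it, from 74.3 ± 2.68 to 40.8 ± 1.91 FPKM. WNT7B, a ligand, rose from 18 ± 0.725 to 43.3 ± 1.98 FPKM.

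Of 36 genes of matrix, adhesion and proteolysis 21 rose and 9 fell. Of 9 tested integrin subunits 6 rose and 1 fell, with a median of 0.89. ITGA3, which binds laminin, was at 118, 118 and 113 FPKM in control and 463, 469 and 439 FPKM under RSGL. ITGA2, which binds collagen, was at 6.47, 6.27 and 6.15 FPKM in control and 25.9, 24.0 and 22.4 FPKM under RSGL. ITGB3 rose from 11.8 ± 0.430 to 33.4 ± 2.65 FPKM, ITGB5 from 34.2 ± 1.98 to 79.7 ± 0.0806 FPKM and ITGA5 from 23.1 ± 1.77 to 43.5 ± 1.17 FPKM. ITGB1 (383 and 389 FPKM), the shared partner of ITGA2, ITGA3 and ITGA5, and ITGAV (25.2 and 24.6 FPKM) did not pass (adjusted p = 0.606 and 0.578, limma). ITGB4 fell from 42.6 ± 1.91 to 30.1 ± 1.53 FPKM. The laminin chain LAMB3 rose from 11.0 ± 0.424 to 18.5 ± 0.679 FPKM, but LAMA3 (6.60 and 6.64 FPKM) did not pass. Collagens split, with COL13A1 and COL6A2 higher, from 4.02 to 9.52 FPKM and from 12.3 to 21.2 FPKM, and COL1A1, COL5A1 and COL4A1 lower, from 2.22 to 0.668 FPKM, 16.7 to 8.56 FPKM and 21.3 to 13.6 FPKM. The urokinase pair rose, PLAUR from 17.4 ± 0.419 to 33.8 ± 1.46 FPKM and PLAU from 45.8 ± 1.07 to 65.4 ± 2.71 FPKM. MMP7 and MMP2 fell from 4.78 to 2.05 FPKM and from 5.67 to 3.51 FPKM. Of 10 epithelial genes 2 rose and 6 fell. KRT8 fell from 651 ± 6.57 to 428 ± 8.19 FPKM, CDH1, E-cadherin, from 8.01 ± 0.311 to 5.19 ± 0.157 FPKM and CLDN2 from 3.72 ± 0.166 to 0.577 ± 0.183 FPKM, while CLDN1 rose from 12.5 ± 0.576 to 24.1 ± 0.934 FPKM. The mesenchymal VIM rose from 386 ± 10.4 to 482 ± 18.1 FPKM, and SNAI1 fell from 3.46 ± 0.285 to 1.97 ± 0.204 FPKM. TUBB3, a tubulin isotype, fell from 124 ± 2.02 to 53.2 ± 2.35 FPKM.

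**Figure D3:**
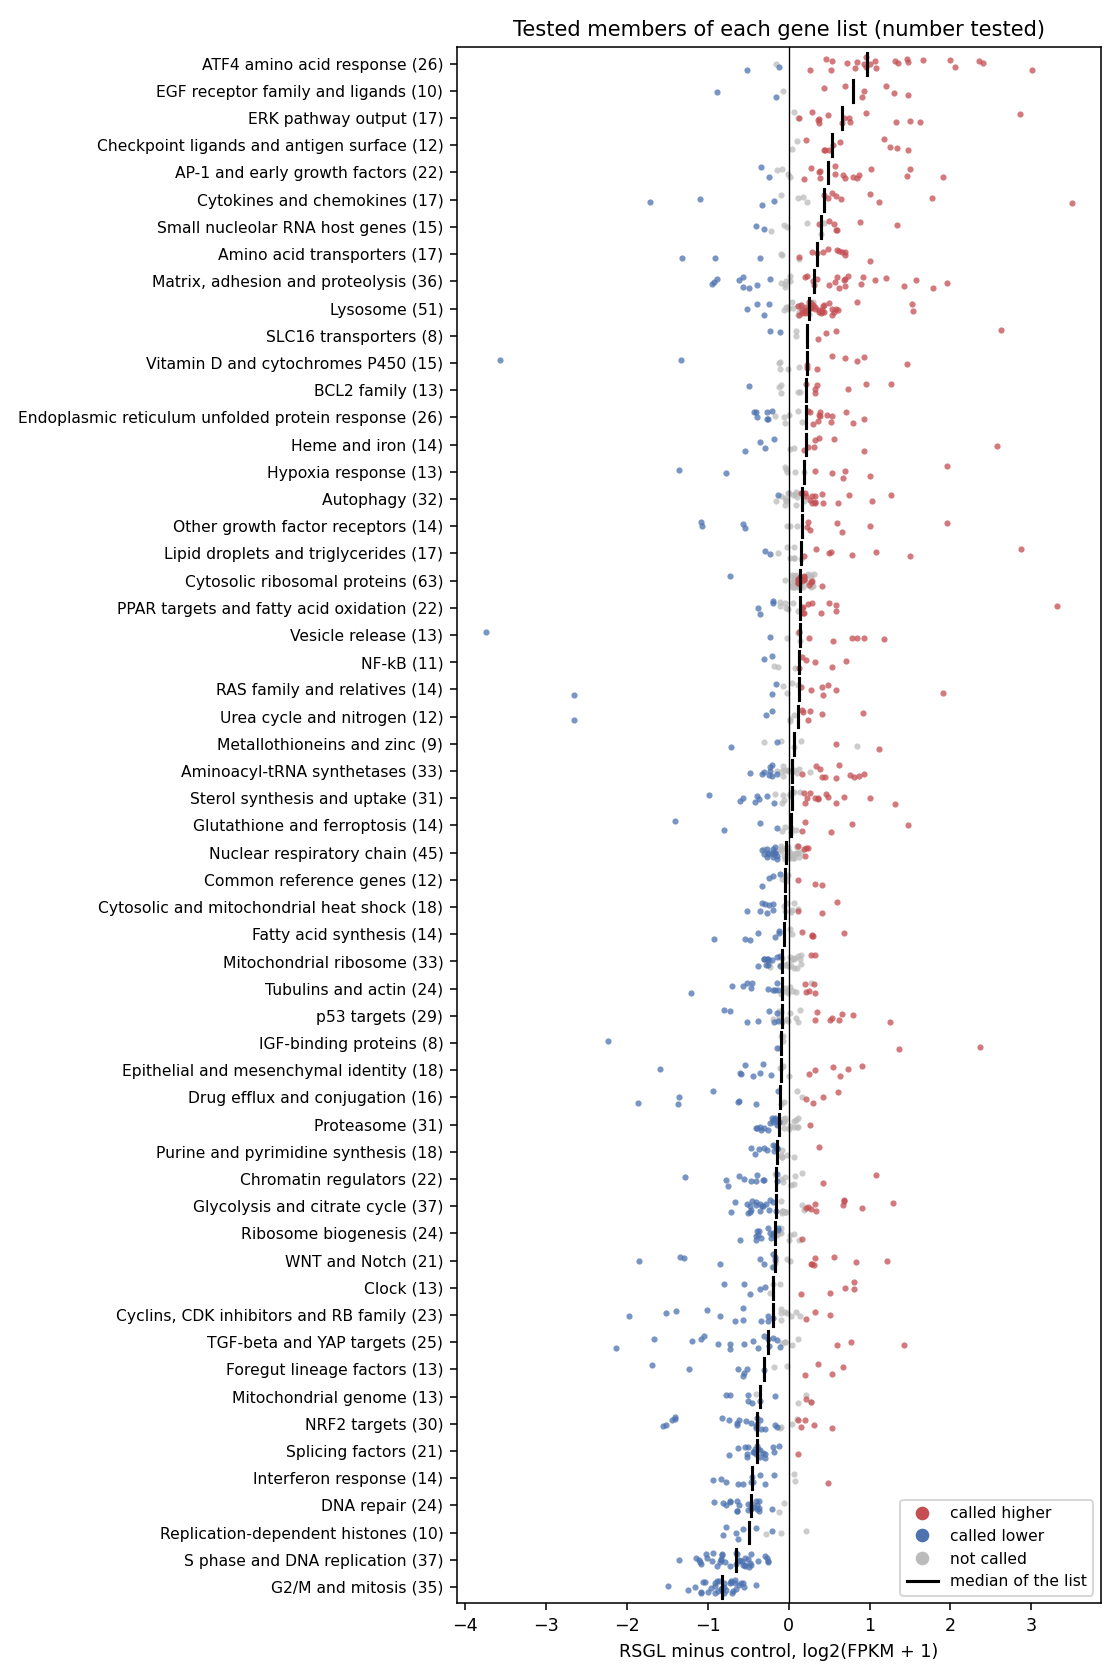
Differences of the tested members of 57 gene lists on the log2(FPKM + 1) scale, with the lists ordered by their median (black bar). Each point is a gene, and the ATF4 list (median 0.97) stands at the top while mitosis (median -0.83) and replication (median -0.65) stand at the bottom with blue points alone.

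Of 17 genes of lipid droplets and triglycerides 8 rose and 2 fell (58.8% called, against 54.2% of all genes). Beside PLIN2, PLIN4 rose from 0.665 ± 0.112 to 2.53 ± 0.173 FPKM, and G0S2, which inhibits the triglyceride lipase, was at 6.69, 7.20 and 7.10 FPKM in control and 21.7, 21.7 and 21.3 FPKM under RSGL. MGLL, which cleaves monoglycerides, rose from 18 ± 0.364 to 31.5 ± 0.837 FPKM. HILPDA, another droplet protein, fell from 11.8 ± 0.639 to 9.87 ± 0.983 FPKM, a call lost without RSGL replicate 2 or 3 or control replicate 3 (-0.20 to -0.19). DGAT2, the last step of triglyceride synthesis, rose from 4.84 ± 0.395 to 6.40 ± 0.377 FPKM. Of 9 PPAR receptors and signature targets 6 rose and 1 fell. PPARG rose from 12.3 ± 0.208 to 19.0 ± 0.893 FPKM and CPT1A from 17.1 ± 0.313 to 23 ± 0.447 FPKM, but PDK4 (32.3 and 32.1 FPKM) and FABP5 (83.9 and 77.6 FPKM) did not pass (adjusted p = 0.866 and 0.324, limma), and UCP2 fell from 28.2 ± 2.25 to 21.7 ± 0.767 FPKM. Of 13 enzymes of fatty acid oxidation 5 rose and 3 fell, all by 0.50 or less. Fatty acid synthesis had 5 of 14 higher and 7 lower. FADS2, a desaturase, fell from 54.2 ± 1.6 to 28.2 ± 1.35 FPKM, the regulator SREBF1 from 32.7 ± 1.41 to 22.2 ± 0.379 FPKM and FASN from 46.5 ± 3.04 to 35.5 ± 2.93 FPKM, while ELOVL6 rose from 8.77 ± 0.181 to 14.8 ± 1.5 FPKM. Sterol genes showed the regulator INSIG1 at 11.9, 13.5 and 13.0 FPKM in control and 33.7, 33.3 and 33.6 FPKM under RSGL. HMGCS1, of sterol synthesis, fell from 16.4 ± 1.29 to 10.5 ± 0.451 FPKM. SQLE (22.0 and 22.2 FPKM) did not pass (adjusted p = 0.830, limma). Transport rose, 5 of 6, with NPC1, which exports cholesterol from lysosomes, from 12.6 ± 0.497 to 26.3 ± 1.41 FPKM and ABCA1 from 3.11 ± 0.138 to 5.61 ± 0.931 FPKM.

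Lysosomal genes rose broadly by small amounts. Of 51 tested members 34 rose and 4 fell (median 0.25), in the hydrolases (17 and 2 of 25), the membrane proteins and regulators (8 and 1 of 11) and the proton pump (9 and 1 of 15). CTSL, a cysteine protease, was at 104, 103 and 109 FPKM in control and 298, 306 and 317 FPKM under RSGL. CD68 was at 39.8, 40.1 and 40.6 FPKM in control and 116, 121 and 119 FPKM under RSGL. Those 2 were the large rises of the list. PSAP, which activates sphingolipid hydrolases, rose from 249 ± 3.23 to 359 ± 4.66 FPKM, ASAH1, acid ceramidase, from 19.3 ± 1.15 to 30.1 ± 1.21 FPKM, and ATP6V0A1, of the proton pump, from 8.29 ± 0.433 to 15.7 ± 1.03 FPKM. GLA, alpha-galactosidase, fell from 68.7 ± 4.30 to 47.6 ± 2.67 FPKM, and TFEB, the regulator of lysosomal genes, from 2.07 ± 0.0568 to 1.35 ± 0.195 FPKM, while its relative TFE3 (33.9 and 33.6 FPKM) did not pass (adjusted p = 0.850, limma). CTSB lies on another scaffold in the table and was not tested, at 38.1, 31.3 and 31.7 FPKM in control and 53.5, 55.1 and 55.2 FPKM under RSGL. Of 32 autophagy genes 16 rose and 1 fell, a share called (53.1%) near the 54.2% of all genes. MAP1LC3B, the LC3 protein of autophagosomes, was at 17.4, 18.3 and 17.0 FPKM in control and 38.1, 37.1 and 35.4 FPKM under RSGL, and WIPI1, which marks the sites where they form, at 2.88, 2.87 and 2.49 FPKM in control and 7.94, 7.54 and 8.62 FPKM under RSGL. OPTN, a cargo receptor, rose from 16.4 ± 0.188 to 28.2 ± 1.28 FPKM. SQSTM1, also placed on another scaffold, varied too widely to read, at 21.3, 21.4 and 3.63 FPKM in control and 11.3, 80.6 and 27.7 FPKM under RSGL.

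Some lysosomal promoters hold the element TCACGTGA known for TFEB and TFE3. It was in 6 of 36 windows (16.7%), against 2.05% of tested genes and 1.04% of all windows. The 4 such members with the largest absolute difference and the element upstream are shown, with its letters in capitals.
GAA, chr17:80101474-80101580, + strand: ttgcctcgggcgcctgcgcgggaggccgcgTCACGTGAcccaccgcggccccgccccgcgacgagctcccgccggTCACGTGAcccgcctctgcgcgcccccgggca
MCOLN1, chr19:7522552-7522623, + strand: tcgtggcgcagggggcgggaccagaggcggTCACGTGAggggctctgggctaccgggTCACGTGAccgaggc
ATP6V1G1, chr9:114587680-114587747, + strand: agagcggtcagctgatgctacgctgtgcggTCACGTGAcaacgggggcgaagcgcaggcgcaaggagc
ATP6V0D1, chr16:67481180-67481247, - strand: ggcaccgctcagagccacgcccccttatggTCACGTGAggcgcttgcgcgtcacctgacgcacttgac
GAA, acid alpha-glucosidase (21.8 to 26.6 FPKM), and MCOLN1, a calcium channel (6.59 to 8.10 FPKM), rose, ATP6V1G1 (35.4 and 42.1 FPKM) did not pass, though it was called higher in 8 alternatives (0.21 to 0.35), among them the fit without control replicate 3 (0.35), and ATP6V0D1 fell (25.2 to 21.2 FPKM). For the ATF4 list, TGATGNAAN was in 3 of 20 windows (15%), against 1.63% of tested genes. Its strict form TGATGCAA was in 1, that of CHAC1, shown with the reverse complement in capitals.
CHAC1, chr15:40953232-40953299, + strand: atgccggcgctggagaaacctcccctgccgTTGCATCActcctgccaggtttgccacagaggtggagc

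Of 25 redox enzymes among the NRF2 targets 19 fell and 2 rose, with a median of -0.40. AKR1B10, an aldo-keto reductase, was at 376, 374 and 370.4 FPKM in control and 149, 139 and 133 FPKM under RSGL. GCLC, the catalytic subunit of glutathione synthesis, was at 73.1, 77.7 and 73.4 FPKM in control and 27.8, 27.9 and 26.5 FPKM under RSGL. OSGIN1 fell from 36.6 ± 1.33 to 11.9 ± 1.07 FPKM, TKT, of the pentose phosphate pathway, from 371 ± 4.62 to 237 ± 3.24 FPKM and GSR, glutathione reductase, from 112 ± 2.75 to 72.6 ± 4.33 FPKM. AKR1C2 and AKR1C3 fell from 77.0 to 26.1 FPKM and from 123 to 44.7 FPKM, and AKR1C1, at 30.5 and 34.0 FPKM, was called higher with libraries that overlap, a call lost without replicate 1 or 3 of either group (0.12 to 0.14). These copies are near-identical, so their split is uncertain. TXNRD1, thioredoxin reductase, rose by 0.12 (SE 0.0391), a call lost without RSGL replicate 1 or 3 or control replicate 1 or 2 (0.09 to 0.13). Both NFE2L2, which encodes NRF2, and its inhibitor KEAP1 fell, the latter at 33.7, 32.9 and 35.7 FPKM in control and 18.3, 19.5 and 18.6 FPKM under RSGL. The aldehyde dehydrogenases ALDH1A1 and ALDH3A1 fell too. ALDH1A1 was at 1920.0, 1961 and 2001 FPKM in control and 761, 746 and 779.7 FPKM under RSGL, and ALDH3A1 fell from 209 ± 4.35 to 80.4 ± 1.86 FPKM. The NRF2 core TGACNNNGC was in 5 of 24 windows (20.8%), against 15.4% of tested genes.

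Of 14 heme and iron genes 8 rose and 4 fell. HMOX1 rose as given above, and FTH1, the ferritin heavy chain, was at 2332, 2369 and 2288 FPKM in control and 4551, 4456 and 4355 FPKM under RSGL. FTL, the light chain, rose from 5827 ± 130.0 to 7543 ± 207 FPKM, a difference that quantile scaling reduced to 0.02. That scaling gives genes of equal rank the same value in every library, so it can shrink differences of the most abundant genes. TFRC, the transferrin receptor, rose from 66.4 ± 0.368 to 83.6 ± 3.38 FPKM, and IREB2, an iron sensor, and NCOA4, the ferritin receptor of autophagy, fell by 0.36 and 0.29. The metallothionein MT2A rose from 390.2 ± 94.7 to 842 ± 150.4 FPKM, a call lost without RSGL replicate 2 or control replicate 1 (1.04 and 1.15), while MT1X (46.8 and 85.7 FPKM) did not pass (adjusted p = 0.0781, limma). GPX1 fell from 174 ± 8.07 to 99.4 ± 2.30 FPKM, and GPX4, which protects lipids, was at 92.9 and 105 FPKM with overlapping libraries (0.17, SE 0.0532), a call lost without RSGL replicate 2 or 3 or control replicate 1 or 2 (0.15).

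Of 20 glycolysis genes 6 rose and 11 fell, the latter mainly enzymes of the lower steps. LDHA was at 711, 723 and 727 FPKM in control and 452, 439.8 and 430.3 FPKM under RSGL, and PKM, TPI1, PGAM1, GAPDH, ENO1, ALDOA and PGK1 fell by 0.24 (PGK1) to 0.48 (PGAM1) on the log2 scale. The glucose carrier SLC2A1 rose from 34.2 ± 0.411 to 55 ± 2.30 FPKM and HK1 from 42.7 ± 0.392 to 68.9 ± 2.13 FPKM, and HK2 was at 0.261, 0.320 and 0.331 FPKM in control and 2.49, 2.24 and 1.84 FPKM under RSGL. Of 17 genes of pyruvate use and the citrate cycle 4 rose and 8 fell, with PDP1 higher, from 6.88 to 13.7 FPKM, and CS, citrate synthase, lower, from 101 to 78.9 FPKM. The hypoxia list had 6 of 13 higher and 2 lower. NDRG1 rose from 11.8 ± 0.906 to 24.6 ± 0.270 FPKM, and the oxygen sensors EGLN3 and EGLN1 fell from 7.04 to 2.14 FPKM and from 19.3 to 10.8 FPKM. HIF1A (99.5 and 97.3 FPKM) did not pass (adjusted p = 0.582, limma). In purine and pyrimidine synthesis 11 of 18 fell and 1 rose, CTPS1, from 30.1 to 39.4 FPKM. SMOX, which oxidises spermine, rose from 142 ± 3.15 to 269.9 ± 3.16 FPKM.

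Transcripts of the mitochondrial genome are given by kind. All 13 mRNAs were tested, and 7 fell and 2 rose. COX3 was at 5412, 5500.1 and 5751 FPKM in control and 3226, 3224 and 3349 FPKM under RSGL, a fall of 0.77 (SE 0.0387). COX1 rose from 8722 ± 148 to 10089 ± 288 FPKM, a difference that quantile scaling reduced to 0.03, with the limit given for FTL. Its neighbour in the enzyme, COX2 (9529.8 and 10329.7 FPKM), did not pass (adjusted p = 0.115, limma). Both ribosomal RNAs rose, RNR1 from 879.5 ± 59.9 to 1419 ± 66.3 FPKM and RNR2 from 4848 ± 332 to 7291 ± 115 FPKM. Of 21 tRNA genes 11 fell and 1 rose. All 11 that fell are annotated on the + strand, where 13 were tested, and the summed level of these 13 was 616 to 691 FPKM in control and 212 to 299 FPKM under RSGL. The 8 on the opposite strand summed to 2272, 2090.2 and 3150.5 FPKM in control and 3511, 4715 and 6358 FPKM under RSGL, with a median difference of -0.42. The riser, TRNP, is among these, at 724, 793 and 785 FPKM in control and 1110.3, 973 and 1094 FPKM under RSGL. Much of that sum came from TRNN, at 797, 662 and 1426 FPKM in control and 1386, 2179 and 3275 FPKM under RSGL, and TRNC, at 607, 519 and 826 FPKM in control and 895, 1456 and 1871 FPKM under RSGL, neither of them called, though TRNC was without RSGL replicate 1 (1.37). TRNH was at 139, 135 and 169 FPKM in control and 30.7, 35.7 and 52.4 FPKM under RSGL and TRNV at 49.0, 50.9 and 57.2 FPKM in control and 15.4, 17.0 and 9.53 FPKM under RSGL. These genes are short, and few fragments stood behind many of them (184 for TRNH and 65 for TRNV in control replicate 1). Some called falls rest on fewer still, as TRNK with 4, 5 and 11 fragments in control and 1, 0 and 1 under RSGL. Of the 9 tRNA genes with at least 50 fragments in each control library, 5 fell and 1 rose. With no strand setting given, reads of overlapping neighbours cannot be told apart. Nuclear genes of the respiratory chain had 5 of 45 higher and 15 lower (44.4% called, below the 54.2% of all genes), all within 0.33 of 0. Without RSGL replicate 2 or 3, or without control replicate 1 or 2, 2 rather than 5 were higher, and without RSGL replicate 1 there were 3.

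**Figure D4:**
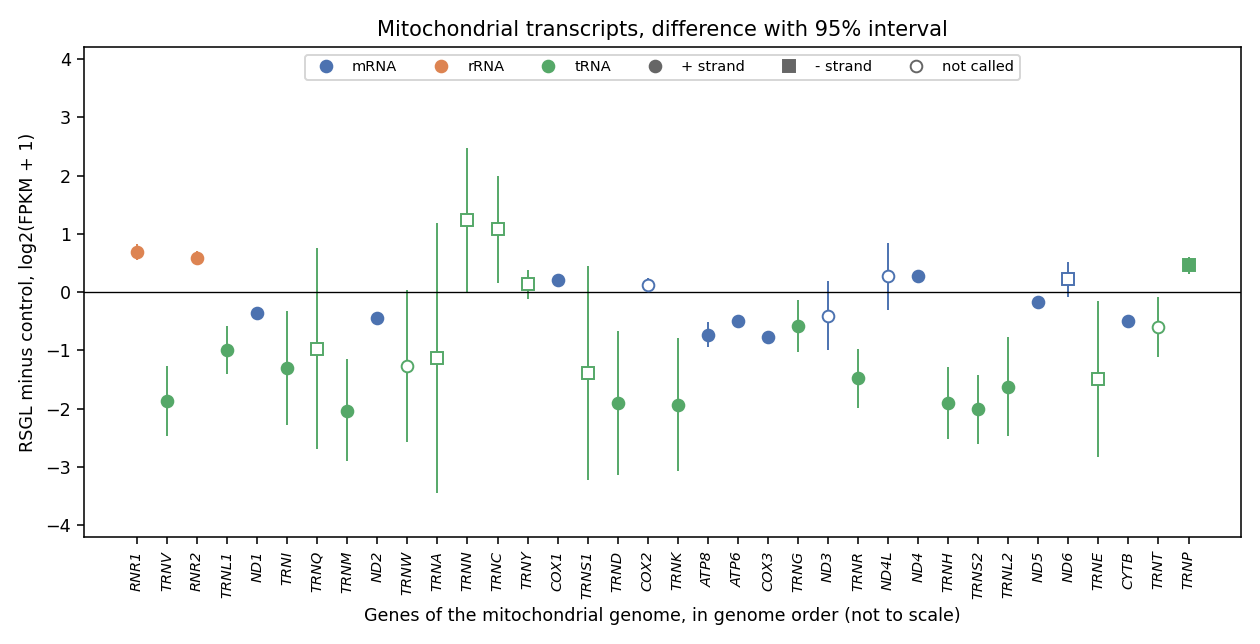
Differences of 36 mitochondrial transcripts with 95% intervals, in genome order but not to scale, by kind (colour) and annotated strand (shape). Filled points were called, and the filled tRNA circles of the + strand lie below 0 while both rRNAs lie at 0.59 and 0.69.

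Of 21 splicing factors 20 fell and SRSF4 rose, the latter a call lost when any library but RSGL replicate 1 was left out (0.09 to 0.11). SRSF2 was at 130.4, 140.1 and 128 FPKM in control and 83.2, 76.6 and 77.8 FPKM under RSGL, and HNRNPM fell from 110.0 ± 3.07 to 70.8 ± 3.30 FPKM. Of 24 ribosome assembly genes 14 fell and 1 rose, with NCL, nucleolin, from 344 to 259.5 FPKM and UBTF, a factor of RNA polymerase I, from 35.2 to 22.8 FPKM. Of 63 cytosolic ribosomal protein genes 17 rose and 1, RPS10, fell (median 0.14), a share called of 28.6%, below the 54.2% of all genes. The number that rose was between 6 and 35 when a library was left out, with 35 without control replicate 3, 7 without control replicate 1, 10 without RSGL replicate 2, and 6 without control replicate 2 or RSGL replicate 3. The fall of RPS10 rests on 115, 129 and 155 fragments in control and 74, 61 and 78 under RSGL. By contrast, RPS6 held 23166 in control replicate 1. Proteasome subunits had 15 of 31 lower and 1 higher (51.6% called, near the 54.2% of all genes), all within 0.40 of 0.

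Immune genes pointed several ways. Of 14 interferon targets 11 fell and 1 rose. IFI6 was at 24.8, 21.8 and 23 FPKM in control and 11.3, 14.5 and 11.9 FPKM under RSGL, and IFIT1 fell from 33.2 ± 1.04 to 18.9 ± 0.577 FPKM, while OAS1 rose from 13.9 ± 1.01 to 19.6 ± 0.996 FPKM. Of 8 interleukins and related cytokines 6 rose and IL18 fell. IL11, of the IL-6 family, was at 66.3, 65.5 and 63.0 FPKM in control and 138, 141 and 149 FPKM under RSGL, IL6 rose from 5.14 ± 0.310 to 11.2 ± 0.569 FPKM and CSF2, which encodes GM-CSF, from 0.749 ± 0.0868 to 4.97 ± 0.322 FPKM. Among chemokines CXCL1 was at 85.8, 82.1 and 87.3 FPKM in control and 25.3, 22.8 and 27.4 FPKM under RSGL and CCL2 fell from 9.76 ± 0.575 to 4.02 ± 0.530 FPKM, while the neighbouring CXCL5 rose from 272 ± 6.69 to 379 ± 16.1 FPKM and CXCL3 (13.0 and 14.2 FPKM) did not pass. Ligands at the surface that immune cells read rose in 10 of 12 genes with 0 lower. CD274, which encodes PD-L1, was at 1.01, 1.11 and 1.22 FPKM in control and 4.41, 3.87 and 3.82 FPKM under RSGL, and PDCD1LG2, which encodes PD-L2, at 0.493, 0.483 and 0.603 FPKM in control and 3.01, 3.29 and 3.44 FPKM under RSGL. ULBP1 and ULBP2, ligands of the NKG2D receptor, rose from 1.03 to 4.15 FPKM and from 2.94 to 7.91 FPKM.

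Of 15 genes of vitamin D and cytochromes P450 8 rose and 2 fell. VDR, the vitamin D receptor, rose from 2.58 ± 0.112 to 5.44 ± 0.106 FPKM and CYP24A1, known as a target of it, fell. TIPARP, a target of the aryl hydrocarbon receptor, was at 9.34, 9.94 and 8.84 FPKM in control and 27.9, 27.0 and 27.6 FPKM under RSGL, CYP1B1 rose from 107 ± 3.92 to 173 ± 6.19 FPKM and CYP1A1 from 0.257 ± 0.0454 to 1.41 ± 0.225 FPKM, while the receptor AHR (15.3 and 15.3 FPKM) did not pass (adjusted p = 0.913, limma). Of 13 genes of vesicle release 7 rose and 2, CPLX2 and RAB27B, fell. Higher were RAB3B from 2.40 ± 0.200 to 6.68 ± 0.622 FPKM, STX3 from 4.33 ± 0.101 to 9.18 ± 0.544 FPKM and SYT1 from 4.55 ± 0.281 to 9.03 ± 0.379 FPKM. Over all lists, 1379 genes were listed and 1198 tested, of which 393 rose and 448 fell (70.2% called). Of those not tested, 101 were under the FPKM limit and 80 on other scaffolds. Of 12 common reference genes 3 rose and 4 fell. GAPDH fell by 0.33, while ACTB (1648 and 1618 FPKM), HPRT1 (66.6 and 65.3 FPKM) and TBP (10.3 and 9.88 FPKM) did not pass (adjusted p = 0.598, 0.543 and 0.705, limma).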

How the data were processed

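Per the labels' protocols, TRIzol was used to extract RNA from cells under RSGL, BSGL or DMSO, and an NEBNext Ultra kit turned 1 µg of it into libraries. The submitters' processing notes name DESeq2 1.16.1, HISAT2 2.0.5 and featureCounts 1.5.0-p3, giving no role for any. The strand setting was not given in the sources used here. The authors deposited a table of FPKM per gene, with gene lengths and positions on GRCh38. Multiplied by gene length and divided by the smallest nonzero product of the same library, the deposited FPKM gave whole fragments. This held within a tolerance of 0.01 in 100% of the values checked, those under 300 fragments. A total of 28 gene names changed into dates by a spreadsheet were restored by gene ID, and 339 genes have no name.

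Genes that reached 1 FPKM in 3 or more of the 6 libraries were fitted as log2(FPKM + 1) with limma 3.58.1 in R 4.3.3 (empirical Bayes with trend, robust, statmod 1.5.0), with no covariate. P-values were adjusted by Benjamini-Hochberg over 12244 genes and called under 0.05. Intervals are 95%. SD are over the 3 libraries of a group, and SE are those of the difference between groups, from limma's empirical Bayes fit of the 6 libraries. The script was tested on simulated data.

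Named genes were, by rule, protein-coding genes called without overlap and with at least 5 FPKM in the higher group (12 largest rises and falls, 3 each for lncRNAs), genes marked in the lists, and the 3 called members of each of the 57 lists with the largest difference. Another 112 genes were named after their values were seen, as further examples of a list or because they moved against it, did not pass or carry a printed sequence. The comparison, the lists and the tests were chosen with earlier results of these data known. The alternatives were other scalings, filters, pseudocounts and fits, a replicate block, all 9 libraries, and each library left out in turn. RefSeq sequences came from tables of GRCh38.p14. Some genes are not reported here.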

Additional observations from a re-analysis of the deposited data

Results flagged for a closer look

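RNF187 and RABGGTA lie on other scaffolds, outside the 12244 genes tested, and drew attention because every RSGL library exceeded every control library and the mean difference was at least 1 on the log2(FPKM + 1) scale. No test was run on them. RNF187, a ubiquitin ligase, was at 0.531, 0.512 and 0.470 FPKM in control and 3.81, 5.40 and 5.30 FPKM under RSGL, a difference of 1.94, and the BSGL libraries were at 0.510, 0.471 and 2.67 FPKM. RABGGTA, a subunit of the enzyme that prenylates RAB proteins, was at 1.84, 0.0778 and 0.0803 FPKM in control and 1.85, 2.30 and 2.71 FPKM under RSGL, a difference of 1.13. Control replicate 1 lay next to RSGL replicate 1 there, so the groups barely parted. Of the 226 genes on other scaffolds, others were lower by at least 1 without overlap, also untested, namely ID3 (-2.16), PSMB3 (-1.98), PRPF8 (-1.16) and HNRNPH1 (-1.10). ID3, a relative of ID1, was at 29.3, 29.5 and 27.4 FPKM in control and 14.2, 0.654 and 10.8 FPKM under RSGL. PSMB3 was at 4.86, 4.96 and 99.2 FPKM in control and 4.41, 1.26 and 3.68 FPKM under RSGL. Control replicate 3 lay far above the rest there, and the other control libraries lay close to RSGL replicate 1. Such scaffolds hold second copies of chromosomal sequence, among which reads can be split, and the part of that in these values was not tested.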

How the results depend on the processing

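Beside the reported 3336 genes higher and 3303 lower, a test against a difference of 0.25 (limma's treat) left 1223 and 1119, and among list members 225 and 245 in place of 393 and 448; this test asks for a larger difference by construction. The number of large rises (224) and falls (176) moved with the scale, to 415 and 364 with voom on recovered fragments, 379 and 336 with a pseudocount of 0.1, and 76 and 59 with a pseudocount of 5. With FPKM brought to a common sum as TPM are, which raised all values against the pseudocount and let 14555 genes pass, 341 falls were large, against 190 with a common sum at the mean FPKM sum. The TPM-like scaling lowered the share of calls that were higher to 43.9%, and the common sum at the mean, added after seeing the data, to 44.0%. With a library left out, 2920 to 3145 genes were higher and 2846 to 3074 lower, 218 to 228 and 171 to 179 by a large difference, and 363 to 412 and 417 to 427 among list members. With the replicate block 3317 were higher and 3278 lower. The labels name no pairing by number. Deviations of same-numbered libraries correlated at 0.0725, 0.0255 and 0.201, and those of unlike number at -0.187 to 0.132. Replicates 2 and 3 under RSGL correlated best with their own number in control, and replicate 1 with replicate 2 of control (0.132). Whether the numbers mark a shared batch was not tested. Under the block the ribosomal protein genes that rose went from 17 to 28, and with voom to 26. Over the alternatives other than treat, at least 84.0% of the reported calls that could be tested remained, all with the same sign. Of 422 named genes that were called, 321 kept the call under all 20 alternatives and 0 changed sign. Depth limits the genes of low level most, with a median SE of 0.088 under 2 FPKM.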

Other observations

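Long non-coding RNAs were not part of any list except the snoRNA host genes, and of 712 tested 144 rose and 158 fell. Over all genes 27.2% were called higher and 27.0% lower. The 3 largest rises were those of LOC105376026, at 4.10, 4.37 and 4.76 FPKM in control and 17.2, 17.1 and 20.2 FPKM under RSGL, LOC100507002, from 11.3 ± 0.744 to 37.1 ± 1.23 FPKM (SD, n = 3), and FLJ46906, from 2.74 ± 0.328 to 9.24 ± 0.983 FPKM. In the other direction, LINC00473, known as a target of cAMP signalling, was at 24.1, 26.6 and 23.3 FPKM in control and 8.15, 7.28 and 7.27 FPKM under RSGL. LOC107984684 fell from 8.38 ± 0.351 to 2.29 ± 0.296 FPKM and FLJ22447 from 11.6 ± 0.316 to 4.02 ± 0.238 FPKM. The rule that chose these 6 asked for groups that do not overlap. Of 15 tested host genes of small nucleolar RNAs, whose introns carry guides of RNA modification, 7 rose and 2 fell (median 0.40). LOC105376026 (gene ID 105376026) lies on chromosome 9 at 35491136 to 35491740 and LINC00473 (gene ID 90632) lies on chromosome 6 at 165924048 to 165988039, both on GRCh38.

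Transcription factors were grouped by the family that the deposited table gives. Of 852 tested factors 213 rose and 213 fell (50% called, against 54.2% of all genes). The bZIP family, which holds ATF4, JUN and CEBP proteins and so overlaps the lists described above, had 25 of 36 members higher and 6 lower (86.1% called). A member outside the lists above, NFIL3, a repressor, was at 5.67, 5.78 and 6.02 FPKM in control and 14.5, 14.7 and 15.1 FPKM under RSGL. The HMG family had 5 of 30 higher and 18 lower. Of the families of nuclear receptors, RXR-like had 0 of 8 higher and 3 lower (37.5% called), and THR-like had 9 of 13 higher and 1 lower, RARB, a retinoic acid receptor, at 4.86, 5.42 and 4.6 FPKM in control and 1.88, 1.90 and 1.57 FPKM under RSGL. Of the C2H2 zinc finger factors 64 of 343 rose and 63 fell (37.0% called). NFIL3 and RARB were named after their values were seen.

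Some further groups are given by count, beside 27.2% of all genes higher, 27.0% lower and 54.2% called. Of 10 tested histone genes of replication 7 fell and 0 rose, with a median of -0.49. Such RNAs mostly lack a poly(A) tail. Of 22 chromatin regulators 12 fell and 2 rose (63.6% called). Of 13 clock genes 5 rose and 5 fell, and of 13 foregut lineage factors 4 rose and 7 fell, where 2 were higher without RSGL replicate 2. Of 16 genes of drug efflux and conjugation 4 rose and 8 fell. The mitochondrial ribosome had 2 of 33 higher and 12 lower (42.4% called), and NF-kB genes 6 of 11 higher and 2 lower (72.7% called).

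Other large differences lay outside every list, and these genes were named after their values were seen. BEX2 was at 0.486, 0.173 and 0.581 FPKM in control and 6.14, 5.75 and 6.29 FPKM under RSGL. ATP6V0D2, a subunit of the proton pump with a restricted tissue pattern, was at 0.0439, 0.0430 and 0.0666 FPKM in control and 3.02, 2.97 and 2.84 FPKM under RSGL. CDCP1, a surface substrate of SRC kinases, rose from 10.4 ± 0.369 to 48.8 ± 4.70 FPKM, and EMP1, a membrane protein, from 7.24 ± 0.512 to 30.3 ± 1.15 FPKM. Of 128 tested microRNA genes 11 were called higher and 9 lower, where 27.2% of all genes were higher and 27.0% lower. Among them were MIR222 at 0, 0 and 1.91 FPKM in control and 7.80, 5.08 and 5.48 FPKM under RSGL and MIR6075 at 13.1, 17.2 and 5.53 FPKM in control and 0.531, 1.18 and 0.577 FPKM under RSGL, but the libraries were not made for small RNAs and the values rest on few fragments. The call of MIR222 was lost without replicate 1 or 2 of either group (2.04 to 2.40).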
